A study of Mus musculus with 24 samples.

Results

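The genes described are those named as subunits of the voltage-gated sodium and calcium channels. They comprise the pore subunits of both channel types and the accessory subunits. The accessory group is set by name and includes γ genes whose proteins bind AMPA receptors. They were chosen by name from the table of counts: a gene was taken when its symbol began with Cacna, Cacnb, Cacng or Scn followed by a digit and when the annotation did not list it as an antisense gene or a pseudogene. The rule gave 40 of the 55471 genes of the table, of which 20 encode pore subunits and 20 encode accessory subunits. The pore subunits are the 10 CaV α1 genes and the 10 NaV α genes, and the accessory subunits are 4 CaV α2δ genes, 4 CaV β genes, 8 γ genes and 4 NaV β genes.

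RNA from the hippocampus of 12 female mice was sequenced, with 3 mice in each of 4 groups and 2 runs per mouse. By the names of the count columns, the runs of a mouse were merged before counting. The CBP-ifKOs carried floxed alleles of Crebbp, the gene of the transcriptional coactivator CBP, and the CaMKIIα-creERT2 transgene, which limits recombination to excitatory neurons of the adult forebrain. The controls were littermates without the transgene. Mice of both genotypes lived either in a standard cage (SC) or in boxes for environmental enrichment (EE).

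All 4 groups were of strain C57BL/6J and between 3 and 6 months old, and all 12 mice, controls included, received 5 intragastric administrations of tamoxifen at 20 mg/mL in corn oil on alternate days. The groups are therefore tamoxifen-treated controls in SC, tamoxifen-treated CBP-ifKOs in SC, tamoxifen-treated controls in EE and tamoxifen-treated CBP-ifKOs in EE. Every CBP-ifKO carried the transgene and no control did, so the loss of CBP and the presence of the transgene cannot be told apart. The transgene does not target interneurons or glia, whose RNA is part of every library.

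The libraries held between 26874015 and 27971488 counts in the 6 control mice and between 28582210 and 37448388 counts in the 6 CBP-ifKOs. Levels are given in CPM, in which each library is scaled to the same total with edgeR's TMM normalization over the 12 libraries. Where genes are compared with each other, the level is given in RPKM, which is the same value per kilobase of exon. A floor of 3 counts stood at between 0.109 and 0.116 CPM in the control libraries, for counting error only. None of the nonzero counts of the CBP-ifKO libraries was odd, against between 54.0% and 55.1% in the control libraries. Whether the CBP-ifKO columns hold 2 different runs per mouse was not tested. Because of the even counts, the fits were also made with the CBP-ifKO counts divided by 2. The CBP-ifKO libraries then held between 14291105 and 18724194 counts, fewer than any control library, and 3 counts stood at between 0.155 and 0.208 CPM. The channel genes took between 0.407% and 0.472% of the counts of a library.

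Some control libraries stood apart from the others before any comparison. Control SC replicate 2 and Control EE replicate 2 had 18.3% and 18.2% of their counts in genes with more than 10 kb of exon, the other 4 control libraries had between 16.1% and 16.5%, and the 6 CBP-ifKO libraries had between 16.7% and 17.3%. Outside the control libraries numbered 2 this share was thus higher in each CBP-ifKO than in each control. This bears on the channel genes, 12 of which have more than 10 kb of exon. Control EE replicate 1 carried RNA of choroid plexus markers. Their summed level was 1246, 47.2 and 35.1 CPM in the EE-housed controls and between 35.2 and 61.8 CPM in the other groups, and Ttr, the most abundant of the 5 genes, stood at 1129, 19.6 and 8.81 CPM in the EE-housed controls. Fits without these libraries and a fit with an offset for gene length are given below. Beyond those fits, the part of these features in the results was not tested.

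Voltage-gated channels open when the membrane depolarizes. The α subunit of a sodium channel forms the whole pore and carries the upstroke of the action potential, while its β subunits are small membrane proteins that adjust gating and anchor the channel. A calcium channel consists of a pore-forming α1 subunit, which sets the channel class (L-type, P/Q-type, N-type, R-type or T-type), an intracellular β subunit that brings the pore to the membrane, and an extracellular α2δ subunit that raises the number of channels at the surface. Several γ genes encode TARPs, proteins that were named after a calcium channel subunit but bind AMPA receptors. In the hippocampus these channels set dendritic excitability, burst firing and transmitter release.

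Crebbp itself served as the check of the sample labels. It stood at 73.9, 81.9 and 70.7 CPM in the SC-housed controls and at 50.6, 51.6 and 50.0 CPM in the SC-housed CBP-ifKOs. In EE the controls had 72.3, 77.1 and 69.6 CPM and the CBP-ifKOs 44.5, 48.3 and 46.7 CPM. Each CBP-ifKO was below each control in both housings. The log2 fold change of CBP-ifKOs over controls, given with its standard error (SE), was -0.58 (SE 0.06, edgeR's adjusted p = 5.42e-04) in SC and -0.64 (SE 0.06, edgeR's adjusted p = 4.07e-04) in EE. The tissue label was checked on markers: Slc17a7 of excitatory neurons was present at 1141 to 1360.1 CPM over the 12 mice, and Prox1 and Calb1 of dentate granule cells at 88.7 to 122 CPM and 153 to 189 CPM.

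Per exon length, the channel genes covered a wide span of levels. Among the CaV α1 genes, Cacna1e of the R-type channel was the most abundant with a mean of 19.0 RPKM (16.3 to 23.1) over the 12 mice. Cacna1b of the N-type channel followed with 15.3 RPKM (13.6 to 16.8), then Cacna1h of a T-type channel with 15.0 RPKM (12.7 to 17.9) and Cacna1a of the P/Q-type channel with 11.9 RPKM (10.6 to 13.3). The ranges of these neighbours overlapped at each step. The T-type genes Cacna1i with 8.67 RPKM (6.43 to 10.5) and Cacna1g with 7.83 RPKM (4.87 to 11.2) followed, with overlapping ranges. The highest value of Cacna1i was below the lowest of Cacna1a, and the range of Cacna1g reached that of Cacna1a. The L-type genes of the hippocampus came last, with 6.29 RPKM (5.11 to 8.62) for Cacna1c, overlapping Cacna1g, and 4.75 RPKM (4.04 to 5.53) for Cacna1d, overlapping Cacna1c. Cacna1f, known from the retina, had a mean of 0.0561 RPKM (0.0284 to 0.0966), and Cacna1s, known from skeletal muscle, 0.0286 RPKM (0.0162 to 0.0472).

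The accessory genes of the calcium channels were ordered without overlap between neighbours. In the α2δ family the means were 22.4 RPKM (20.8 to 24.9) for Cacna2d1, 15.8 RPKM (13.8 to 17.8) for Cacna2d3, 3.82 RPKM (2.94 to 4.48) for Cacna2d2 and 0.184 RPKM (0.138 to 0.252) for Cacna2d4. In the β family they were 45.4 RPKM (39.2 to 54.8) for Cacnb3, 25.6 RPKM (21.4 to 30.4) for Cacnb1, 13.7 RPKM (12.3 to 15.3) for Cacnb4 and 5.57 RPKM (4.84 to 6.64) for Cacnb2. In the γ family Cacng7 led with 46.4 RPKM (37.7 to 51.4), followed by Cacng8 with 32.5 RPKM (29.2 to 37.6) and Cacng3 with 21.1 RPKM (17.0 to 25.4). The low end of that family held Cacng2 with 11.2 RPKM (10.2 to 12.1), Cacng4 with 5.19 RPKM (4.41 to 5.97), Cacng5 with 2.24 RPKM (1.90 to 2.58), Cacng6 with 1.13 RPKM (0.558 to 1.80) and Cacng1 with 0.0295 RPKM (0 to 0.128).

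Among the sodium channel pores, Scn8a with 25.3 RPKM (21.1 to 30.4) and Scn2a with 23.4 RPKM (21.6 to 25.7) overlapped at the top. Scn1a followed with 10.1 RPKM (9.30 to 10.9) and Scn3a with 4.48 RPKM (3.84 to 5.07), each apart from its neighbours. Scn7a with 0.591 RPKM (0.400 to 0.816) and Scn9a with 0.412 RPKM (0.302 to 0.591) stood at a low level and overlapped. Scn4a, Scn10a and Scn11a, known from muscle and sensory neurons, did not exceed 0.0250 RPKM in any mouse, with Scn11a the highest of them. Of the NaV β genes, Scn2b with 63.4 RPKM (57.2 to 72.6) and Scn3b with 63.0 RPKM (53.3 to 74.5) overlapped, and Scn4b was below them with 4.85 RPKM (2.69 to 7.01).

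**Figure D1:**
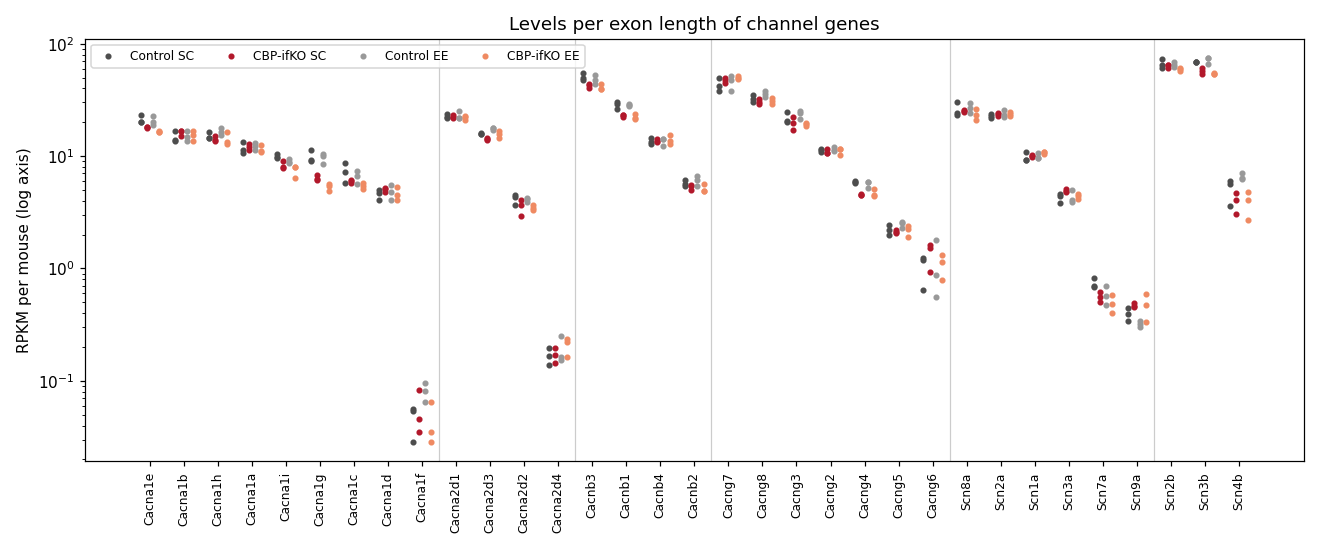
RPKM of 33 tested channel genes on a log axis, ordered by mean within each family, with 1 point per mouse and 3 mice in each of the 4 groups. Scn2b, with a mean of 63.4 RPKM, lies at the top and Cacna1f, with 0.0561 RPKM, at the bottom.

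The first question was how the channel genes differed between genotypes in each housing. edgeR's expression filter kept 35 of the 40 genes in every comparison and removed Cacna1s, Scn4a, Scn10a, Scn11a and Cacng1. A gene is described as called when the p-value of edgeR's quasi-likelihood test, adjusted over all genes tested by the Benjamini-Hochberg method, was below 0.05. In the SC-housed mice 7 channel genes were called lower and 0 higher in CBP-ifKOs, while 4.02% of the 17532 genes tested were called lower and 1.51% higher. Among the 7 were Cacna1g, Cacna1i, Cacnb1, Cacnb3, Cacng4 and Scn3b. DESeq2 called 10 genes lower and 0 higher, with Cacna1e and Cacna2d3 among those added, beside 910 lower and 390 higher of all genes. edgeR gave 13 of the 35 an unadjusted p below 0.05 in either direction, beside 3593 of all genes. In bulk tissue, fewer cells of a type and less RNA per cell cannot be told apart.

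In the EE-housed mice 5 channel genes were called lower and 0 higher, beside 3.53% and 1.03% of the 17625 genes tested. The 5 were Cacna1e, Cacna1g, Cacnb1, Scn3b and Scn4b. Here edgeR gave 20 of the 35 an unadjusted p below 0.05, beside 3448 of all genes. DESeq2 called 9 lower and 0 higher, adding Cacna1c, Cacna1i, Cacnb3 and Cacng3, beside 1001 lower and 295 higher of all genes. Cacna1g, Cacnb1 and Scn3b were called lower in both housings, a set of 3, and 2.35% of the 17250 genes tested in both were called lower in both. The SC and EE comparisons share no mouse. Of the 35 genes 32 had the same sign in both, 23 negative and 9 positive, which is 91.4% beside 72.0% of all genes. The sign of Cacna2d1 in SC reversed with DESeq2's size factors or a filter of 1 CPM in 3 libraries, that of Cacng6 in EE with an offset for gene length or without a filter, and that of Scn2a in EE without a filter. Leaving out 1 mouse reversed more signs, in SC those of Cacna1a, Cacna1f, Cacna2d1, Cacna2d4, Cacnb4, Cacng5, Scn1a, Scn2b and Scn8a, each in at least 1 fit. In EE it reversed those of Cacna1b, Cacna1d, Cacna2d1, Cacnb4, Cacng2, Cacng6, Scn2a and Scn3a, so the share of equal signs rests partly on small differences.

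The number of calls within a housing depended on single mice. In SC it was 5 without Control SC replicate 1, 11 without Control SC replicate 2 and 1 without Control SC replicate 3. The 11 were 9 lower and 2 higher, with Cacna1b and Scn3a called higher, beside 1140 lower and 768 higher of all genes, against 704 and 264 with all mice. Of all genes 493 were called lower and 144 higher without Control SC replicate 1, and 353 and 82 without Control SC replicate 3. Without CBP-ifKO SC replicate 1, 2 or 3 the number of channel genes was 2 each time. Of all genes 337, 319 and 348 were then called lower and 67, 80 and 85 higher. In EE the number of channel genes was 6, 7 and 2 without Control EE replicates 1, 2 and 3. Of all genes 561, 735 and 249 were then called lower and 140, 281 and 36 higher, against 623 and 182 with all mice. Without each of CBP-ifKO EE replicates 1, 2 and 3 the number of channel genes was 3. Beside this, 355, 375 and 241 of all genes were called lower and 76, 72 and 45 higher. Cacna1g was the 1 gene that kept its call in all 6 such fits in SC, and Cacna1g and Scn3b were the 2 that did so in EE.

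Groups that did not overlap were also counted. In SC every CBP-ifKO lay below every control for 10 channel genes and above for 2, beside 13.8% and 12.1% of all genes tested. In EE this held for 14 genes below and 0 above, beside 13.9% and 11.4%. For 8 genes the CBP-ifKOs lay below the controls in both housings, beside 7.59% of the genes tested in both, among them Cacna1e, Cacna1g, Cacna1i, Cacna2d3, Cacnb1, Cacng4 and Scn3b. The 2 genes above in SC were Scn3a and Scn9a.

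Over both housings, in a fit of all 12 mice with 1 coefficient per group, 16 channel genes were called lower and 1 higher, beside 10.3% and 6.64% of the 18251 genes tested. DESeq2 gave the same counts of channel genes, beside 1983 lower and 1383 higher of all genes. The median log2 fold change of the 35 genes was -0.09 in SC, -0.20 in EE and -0.16 over both housings, and that of all genes tested was -0.00, 0.01 and 0.00. By role, 5 of the 16 tested pore genes were called lower and 1 higher, and 11 of the 19 tested accessory genes were called lower. Of these 11 accessory genes, 3 were γ genes. Leaving out 1 mouse at a time gave between 10 and 16 calls, and without Control EE replicate 2 they included Scn3a as higher. Of all genes these fits called between 1509 and 1922 lower and between 885 and 1372 higher. The number of channel genes was 10 without CBP-ifKO SC replicate 3 or CBP-ifKO EE replicate 1, and 11 without Control EE replicate 3. Each was more than 1.5 times below the 17 calls of all mice. The 10 genes called in each of the 12 fits included Cacna1e, Cacna1g, Cacna1i, Cacna2d3, Cacnb1, Cacnb3, Cacng4, Scn3b and Scn4b. Without both control libraries numbered 2, a fit chosen after seeing the data, 13 genes were called lower and 3 higher, beside 2143 and 1880 of all genes, against 1871 and 1211 with all mice. Cacna1c, Cacna2d2, Cacnb2 and Scn9a then lost their calls, and Cacna1b, Scn1a and Scn3a were called higher.

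**Figure D2:**
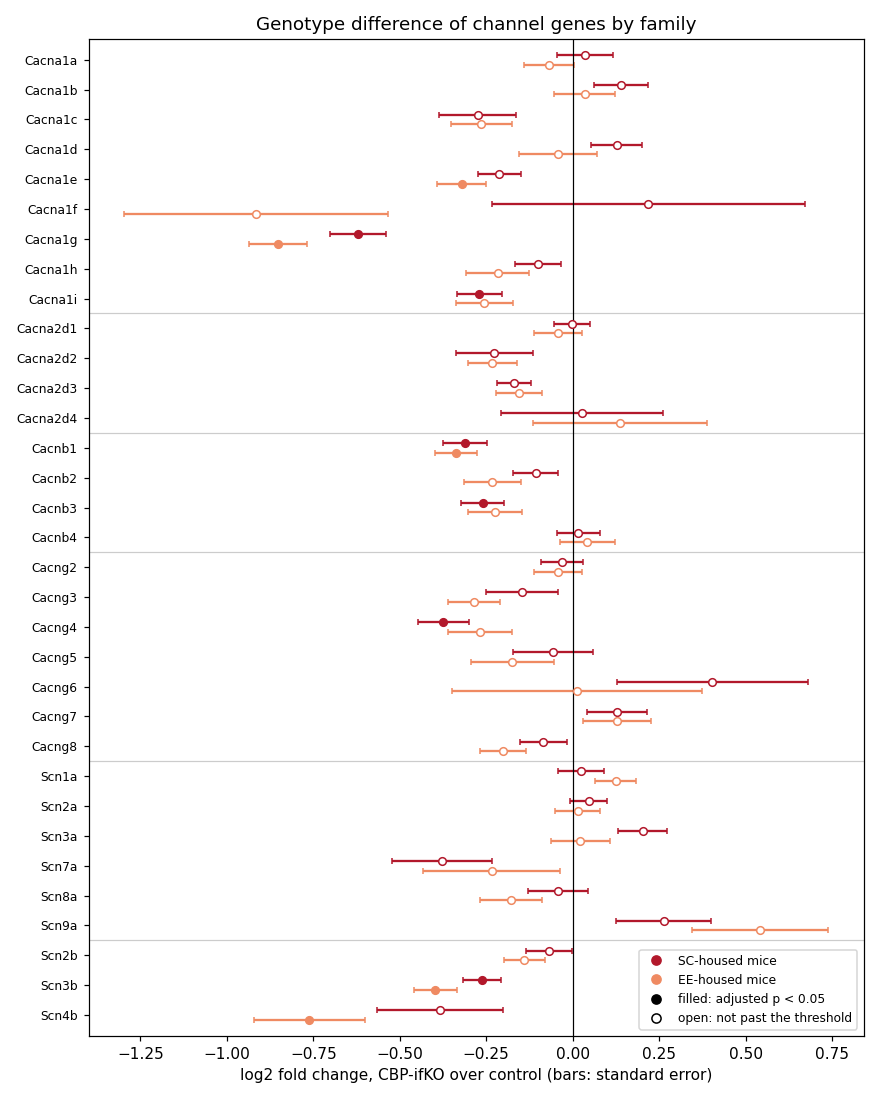
The log2 fold change of CBP-ifKOs over controls with its standard error for 33 tested channel genes, grouped by family, in the 6 SC-housed and the 6 EE-housed mice, where filled points mark adjusted p-values below 0.05. Points lie left of 0 in both housings for 21 of them, and the sign of Cacna2d1 in SC and of Cacng6 and Scn2a in EE reversed under another scaling or filter, and those of other genes near 0 without 1 mouse.

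Cacna1g (ENSMUSG00000020866) encodes the pore of CaV3.1, a T-type channel that opens near the resting potential and takes part in burst firing. It stood at 92.4, 114 and 94.0 CPM in the SC-housed controls and at 68.9, 62.4 and 64.0 CPM in the SC-housed CBP-ifKOs. Under EE the values were 87.0, 106 and 102 CPM in the controls and 55.4, 57.3 and 49.3 CPM in the CBP-ifKOs. All 6 CBP-ifKOs were below all 6 controls, and the control libraries numbered 2 were the highest of their groups. Its log2 fold change was -0.62 (SE 0.08, edgeR's adjusted p = 0.00159) in SC, -0.85 (SE 0.08, edgeR's adjusted p = 4.07e-04) in EE and -0.74 (SE 0.06, edgeR's adjusted p = 1.89e-06) over both housings. Over the 12 fits without 1 mouse the last of these ranged from -0.78 to -0.69. Cacna1g is on the list of decreased genes that the study drew partly from the SC-housed mice, so its calls in SC and over both housings are not independent evidence. The EE-housed mice did not enter that list.

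The share of Cacna1g among the CaV α1 genes, from summed RPKM, was 10.1, 10.9 and 10.3% in the SC-housed controls and 7.57, 7.31 and 7.47% in the SC-housed CBP-ifKOs. In EE it was 9.95, 10.1 and 10.7% in the controls and 6.94, 6.50 and 6.50% in the CBP-ifKOs. The genotypes did not overlap in either housing. The T-type genes together took 37.2 ± 1.97% (SD, n = 3) of the family in the SC-housed controls, 33.4 ± 0.737% in the SC-housed CBP-ifKOs, 37.3 ± 0.720% in the EE-housed controls and 33.6 ± 0.876% in the EE-housed CBP-ifKOs. The L-type genes took from 11 to 13.3% over the 12 mice, and their genotypes overlapped in both housings.

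Cacna1i (ENSMUSG00000022416) encodes CaV3.3, the slowest of the T-type channels. It stood at 95.4, 104 and 96.2 CPM in the SC-housed controls and 89.1, 77.3 and 78.7 CPM in the SC-housed CBP-ifKOs. In EE the values were 85.6, 92.0 and 87.7 CPM in the controls and 78.3, 78.9 and 63.4 CPM in the CBP-ifKOs. The genotypes did not overlap within either housing, although the SC-housed CBP-ifKO at 89.1 CPM lay among the EE-housed controls. CBP-ifKOs differed from controls by a log2 value of -0.27 (SE 0.07, edgeR's adjusted p = 0.0362) in SC, -0.26 (SE 0.08, edgeR's adjusted p = 0.108) in EE and -0.27 (SE 0.06, edgeR's adjusted p = 0.00415) over both housings. The call in SC was lost without Control SC replicate 1 or 3 and without CBP-ifKO SC replicate 2 or 3, with edgeR's adjusted p-values over the 6 fits from 0.0296 to 0.159, and it was also lost in the fit of all 12 mice. Cacna1h, the gene of CaV3.2, ranged from 124 to 175 CPM and was not called with all mice and edgeR's expression filter. Without the filter it was called lower in EE and over both housings, and over both housings also without CBP-ifKO EE replicate 2.

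Cacna1e (ENSMUSG00000004110) encodes CaV2.3 of the R-type channel, which is found in dendrites and spines. Its levels were 502, 582 and 504 CPM in the SC-housed controls and 461, 460.2 and 450.1 CPM in the SC-housed CBP-ifKOs. They were 476, 576 and 509 CPM in the EE-housed controls and 411, 419 and 411 CPM in the EE-housed CBP-ifKOs. The CBP-ifKOs lay close together below the controls, and the highest value of each housing was that of the control library numbered 2. On the log2 scale the difference was -0.21 (SE 0.06, edgeR's adjusted p = 0.0708) in SC, -0.32 (SE 0.07, edgeR's adjusted p = 0.0255) in EE and -0.27 (SE 0.05, edgeR's adjusted p = 0.00114) over both housings. The call in EE was lost without Control EE replicate 3 and without CBP-ifKO EE replicate 1, 2 or 3, with edgeR's adjusted p-values over the 6 fits from 0.0110 to 0.120.

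Cacna1c (ENSMUSG00000051331) encodes CaV1.2, the main L-type channel of the hippocampus. It stood at 125, 189 and 158 CPM in the SC-housed controls and 131, 133 and 125 CPM in the SC-housed CBP-ifKOs. Levels in EE were 124, 161 and 147 CPM in the controls and 119, 126 and 112 CPM in the CBP-ifKOs. The genotypes overlapped in both housings, and Control SC replicate 2 was the highest of the 12. Over both housings the log2 fold change was -0.27 (SE 0.08, edgeR's adjusted p = 0.0305), and the adjusted p was 0.182 in SC and 0.124 in EE. This call was kept without Control SC replicate 1, Control EE replicate 1 or CBP-ifKO EE replicate 2 and was lost in the other 9 fits that left out a mouse, with adjusted p-values in edgeR from 0.00260 to 0.0757 over the 12. Without both control libraries numbered 2 the log2 fold change was -0.15 and the adjusted p in edgeR 0.109.

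The other CaV α1 genes were not called by edgeR between genotypes with all mice and its expression filter. Cacna1a ranged from 130.2 to 164 CPM, Cacna1b from 135 to 167 CPM and Cacna1d, an L-type gene, from 61.4 to 83.9 CPM. Cacna1f ranged from 0.258 to 0.878 CPM and had between 7 and 24 deposited counts per library, beside a floor of 3 counts. Its values in EE were lower in each CBP-ifKO than in each control, with the nearest at 0.587 and 0.588 CPM. Its log2 fold change there was -0.92 (SE 0.38, edgeR's adjusted p = 0.212). Cacna1s, which was not tested, ranged from 0.106 to 0.309 CPM.

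The α2δ proteins bind the pore from outside the cell. Cacna2d1 (ENSMUSG00000040118), the most abundant of them, stood at 278, 291 and 268 CPM in the SC-housed controls and 270.0, 279 and 288 CPM in the SC-housed CBP-ifKOs. In EE it stood at 269.6, 309.7 and 269.8 CPM in the controls and 258, 279 and 283 CPM in the CBP-ifKOs. These groups overlapped throughout, and the log2 fold change over both housings was -0.03 (SE 0.04, edgeR's adjusted p = 0.736), with a sign that reversed when both control libraries numbered 2 were left out.

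Cacna2d3 (ENSMUSG00000021991) had 137, 141 and 138 CPM in the SC-housed controls and 121, 124 and 126 CPM in the SC-housed CBP-ifKOs. Under EE the values were 148, 154 and 156 CPM in the controls and 126, 137 and 145 CPM in the CBP-ifKOs. Within each housing each CBP-ifKO was below each control, and the EE-housed controls were above the SC-housed controls. For Cacna2d3 the log2 fold change was -0.17 (SE 0.05, edgeR's adjusted p = 0.0724) in SC, -0.16 (SE 0.07, edgeR's adjusted p = 0.215) in EE and -0.17 (SE 0.04, edgeR's adjusted p = 0.00830) over both housings. DESeq2 called it lower in SC as well.

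Cacna2d2 (ENSMUSG00000010066) is an α2δ gene of Purkinje cells and of some interneurons. It had 35.6, 34.2 and 29.3 CPM in the SC-housed controls, 32.4, 23.3 and 28.9 CPM in the SC-housed CBP-ifKOs, 33.5, 32.9 and 31.2 CPM in the EE-housed controls and 27.4, 29.1 and 26.1 CPM in the EE-housed CBP-ifKOs. The genotypes overlapped in SC and did not in EE. For Cacna2d2 the log2 fold change over both housings was -0.23 (SE 0.07, edgeR's adjusted p = 0.0351). That call was kept without Control SC replicate 3, CBP-ifKO SC replicate 1, Control EE replicate 3 or CBP-ifKO EE replicate 2 and was lost in the other 8 fits without a mouse, where edgeR's adjusted p-values over the 12 were 0.0116 to 0.0852. Cacna2d4 ranged from 1.31 to 2.39 CPM and was not called.

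The β subunits sit on the inner side of the CaV pores. Cacnb1 (ENSMUSG00000020882) stood at 138, 118 and 131 CPM in the SC-housed controls and 106, 105 and 100.2 CPM in the SC-housed CBP-ifKOs. Levels in EE were 129, 127 and 131 CPM in the controls and 96.7, 108 and 99.8 CPM in the CBP-ifKOs. All 6 CBP-ifKOs were below all 6 controls. CBP-ifKOs differed from controls by a log2 value of -0.31 (SE 0.06, edgeR's adjusted p = 0.0145) in SC, -0.34 (SE 0.06, edgeR's adjusted p = 0.00948) in EE and -0.33 (SE 0.04, edgeR's adjusted p = 1.05e-04) over both housings. The call in SC was lost without Control SC replicate 3 and without CBP-ifKO SC replicate 1, 2 or 3, with edgeR's adjusted p-values over the 6 fits from 0.00125 to 0.0788. The call in EE was lost without Control EE replicate 3 and without CBP-ifKO EE replicate 1 or 3, with edgeR's adjusted p-values from 0.00952 to 0.0691.

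Cacnb3 (ENSMUSG00000003352) is the most abundant β gene in these libraries. It stood at 219.7, 189 and 199.7 CPM in the SC-housed controls and 171, 174 and 163 CPM in the SC-housed CBP-ifKOs. In EE the values were 192, 176 and 209.7 CPM in the controls and 157, 177 and 157 CPM in the CBP-ifKOs. The genotypes did not overlap in SC, and in EE the highest CBP-ifKO passed the lowest control, Control EE replicate 2. On the log2 scale the difference was -0.26 (SE 0.06, edgeR's adjusted p = 0.0309) in SC, -0.22 (SE 0.08, edgeR's adjusted p = 0.134) in EE and -0.25 (SE 0.05, edgeR's adjusted p = 0.00359) over both housings. The call in SC was kept without Control SC replicate 2 and lost without Control SC replicate 1 or 3 and without CBP-ifKO SC replicate 1, 2 or 3, with edgeR's adjusted p-values from 0.00470 to 0.129.

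Cacnb2 (ENSMUSG00000057914) is the β gene best known from the heart, and it is also made in neurons. It had 71.8, 81.1 and 74.9 CPM in the SC-housed controls, 66.6, 73.5 and 71.3 CPM in the SC-housed CBP-ifKOs, 72.1, 87.8 and 81.3 CPM in the EE-housed controls and 64.1, 74.7 and 65.2 CPM in the EE-housed CBP-ifKOs. The genotypes overlapped in both housings, with the control libraries numbered 2 highest. Over both housings the log2 fold change was -0.17 (SE 0.06, edgeR's adjusted p = 0.0433). This call was kept without Control SC replicate 1, Control EE replicate 1 or CBP-ifKO EE replicate 2 and lost in the other 9 fits, with edgeR's adjusted p-values over the 12 from 0.0145 to 0.106, and it was 0.144 without both control libraries numbered 2. Cacnb4, the remaining β gene, ranged from 111 to 137 CPM and was not called. Summed over the β family the level was 104, 94.1 and 97.1 RPKM in the SC-housed controls, 85.5, 85.4 and 82.0 RPKM in the SC-housed CBP-ifKOs, 96.2, 92.5 and 99.7 RPKM in the EE-housed controls and 78.1, 87.1 and 81.5 RPKM in the EE-housed CBP-ifKOs, without overlap of genotypes in either housing.

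Of the γ genes, Cacng2, Cacng3, Cacng4 and Cacng8 encode the classical TARPs and Cacng5 and Cacng7 related ones, while Cacng1 and Cacng6 are tied to muscle channels. Cacng4 (ENSMUSG00000020723) stood at 20.7, 21.3 and 21.1 CPM in the SC-housed controls and 16.3, 16 and 16.5 CPM in the SC-housed CBP-ifKOs. In EE it stood at 20.9, 18.7 and 21.1 CPM in the controls and 15.8, 16 and 18.4 CPM in the CBP-ifKOs. The genotypes did not overlap in either housing, and the SC groups were tight. For Cacng4 the log2 fold change was -0.37 (SE 0.07, edgeR's adjusted p = 0.0127) in SC, -0.27 (SE 0.09, edgeR's adjusted p = 0.132) in EE and -0.33 (SE 0.06, edgeR's adjusted p = 8.45e-04) over both housings. The call in SC was lost without Control SC replicate 3 and without CBP-ifKO SC replicate 1 or 2, with edgeR's adjusted p-values from 0.0145 to 0.0652 over the 6 fits.

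Cacng3 (ENSMUSG00000066189), a TARP of forebrain neurons, had 69.2, 56.5 and 55.6 CPM in the SC-housed controls, 62.0, 54.6 and 47.1 CPM in the SC-housed CBP-ifKOs, 67.1, 59.5 and 70.6 CPM in the EE-housed controls and 53.8, 51.7 and 55.2 CPM in the EE-housed CBP-ifKOs. The genotypes overlapped in SC and not in EE. For Cacng3 the log2 fold change was -0.29 (SE 0.07, edgeR's adjusted p = 0.0526) in EE and -0.22 (SE 0.07, edgeR's adjusted p = 0.0405) over both housings. In EE edgeR called it lower with CBP-ifKO counts divided by 2, with DESeq2's size factors and with the replicate number as a block. The same held without a filter, with 1 CPM in 3 libraries, with the length offset and without Control EE replicate 2. The call over both housings was kept without Control SC replicate 2 or 3, CBP-ifKO SC replicate 1 or Control EE replicate 2 and lost in the other 8 fits, with edgeR's adjusted p-values over the 12 from 0.0159 to 0.108. Cacng8 (ENSMUSG00000053395), a TARP of the hippocampus that followed Cacng7 in level, had 82.7, 70.8 and 75.7 CPM in the SC-housed controls, 68.6, 76.2 and 71.4 CPM in the SC-housed CBP-ifKOs, 78.8, 84.2 and 88.2 CPM in the EE-housed controls and 68.5, 76.6 and 72.1 CPM in the EE-housed CBP-ifKOs. It too overlapped in SC and not in EE. Over both housings the log2 fold change was -0.15 (SE 0.05, edgeR's adjusted p = 0.0492). The call was kept without Control SC replicate 2, CBP-ifKO SC replicate 2, Control EE replicate 1 or CBP-ifKO EE replicate 2 and lost in the other 8 fits, with edgeR's adjusted p-values from 0.0215 to 0.129. It was also lost with DESeq2's size factors and with a filter of 1 CPM in 3 libraries.

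Cacng7 (ENSMUSG00000069806), the most abundant γ gene, stood at 122, 92.6 and 102 CPM in the SC-housed controls and 121, 116 and 109 CPM in the SC-housed CBP-ifKOs. Under EE the values were 117, 92.0 and 126 CPM in the controls and 117, 125 and 120.4 CPM in the CBP-ifKOs. The control libraries numbered 2 were the 2 lowest of the 12, and the genotypes overlapped in both housings. For Cacng7 the log2 fold change over both housings was 0.12 (SE 0.07, edgeR's adjusted p = 0.283). Its share of the summed RPKM of the γ family was 36.6 ± 1.84% (SD, n = 3) in the SC-housed controls, 40.5 ± 0.526% in the SC-housed CBP-ifKOs, 36.1 ± 3.14% in the EE-housed controls and 41.7 ± 0.617% in the EE-housed CBP-ifKOs, without overlap of genotypes, while the summed level of the family overlapped between them. Cacng2 ranged from 56.4 to 66.8 CPM, Cacng5 from 7.29 to 9.88 CPM and Cacng6 from 1.10 to 3.55 CPM, and none of these was called. Cacng1, which was not tested, did not exceed 0.160 CPM.

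The main sodium channel pores of central neurons were not called by edgeR between genotypes with all mice and its expression filter. Scn8a (ENSMUSG00000023033), the gene of NaV1.6 at the axon initial segment and at nodes, stood at 365, 479 and 379.5 CPM in the SC-housed controls and 395, 405 and 389 CPM in the SC-housed CBP-ifKOs. Levels in EE were 383, 463 and 421 CPM in the controls and 332, 417 and 364 CPM in the CBP-ifKOs. The groups overlapped, and the control libraries numbered 2 were the 2 highest of the 12. Over both housings the log2 fold change was -0.11 (SE 0.07, edgeR's adjusted p = 0.297), and without the filter edgeR called it lower over both housings. Scn2a, the NaV1.2 gene of excitatory neurons, ranged from 278 to 331 CPM, and Scn1a, the NaV1.1 gene of interneurons, from 104 to 122 CPM. Scn3a, which is prominent in development, ranged from 48.8 to 64.5 CPM. In SC it was higher in each CBP-ifKO than in each control with a log2 fold change of 0.20 (SE 0.07, edgeR's adjusted p = 0.127), and the length offset, an alternative chosen after seeing the data, called it higher in SC and over both housings.

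Scn9a (ENSMUSG00000075316) is the NaV1.7 gene known from pain neurons. With all mice and without the length offset it was the 1 channel gene called higher in CBP-ifKOs. It had 4.34, 5.02 and 5.63 CPM in the SC-housed controls, 5.92, 5.82 and 6.25 CPM in the SC-housed CBP-ifKOs, 4.37, 3.86 and 4.13 CPM in the EE-housed controls and 7.54, 6.03 and 4.29 CPM in the EE-housed CBP-ifKOs. The genotypes did not overlap in SC and overlapped in EE, where CBP-ifKO EE replicate 3 lay among the controls. For Scn9a the log2 fold change over both housings was 0.40 (SE 0.12, edgeR's adjusted p = 0.0365). The call was kept without Control SC replicate 3, Control EE replicate 1 or CBP-ifKO EE replicate 3 and lost in the other 9 fits, with edgeR's adjusted p-values over the 12 from 0.00502 to 0.0947, and it was 0.0791 without both control libraries numbered 2. Scn7a, a sodium-sensing relative made by glia, ranged from 2.94 to 5.99 CPM, with each SC-housed CBP-ifKO below each SC-housed control and no call. Scn4a, Scn10a and Scn11a did not exceed 0.113, 0.0534 and 0.148 CPM.

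The NaV β genes encode proteins that modify gating and take part in cell adhesion. Scn3b (ENSMUSG00000049281) stood at 379, 375 and 375 CPM in the SC-housed controls and 313, 333 and 295 CPM in the SC-housed CBP-ifKOs. Under EE the values were 361, 407 and 406 CPM in the controls and 291, 302 and 291 CPM in the CBP-ifKOs. All 6 CBP-ifKOs were below all 6 controls. On the log2 scale the difference was -0.26 (SE 0.05, edgeR's adjusted p = 0.0174) in SC, -0.40 (SE 0.06, edgeR's adjusted p = 0.00566) in EE and -0.33 (SE 0.04, edgeR's adjusted p = 4.44e-05) over both housings. The call in SC was lost without Control SC replicate 3 and without CBP-ifKO SC replicate 1 or 3, with edgeR's adjusted p-values from 0.00931 to 0.0941. The call in EE was kept in all 6 fits.

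Scn4b (ENSMUSG00000046480) encodes β4, the subunit linked to the resurgent sodium current of fast-firing neurons. It had 30.0, 28.3 and 18 CPM in the SC-housed controls and 23.4, 20.1 and 15.2 CPM in the SC-housed CBP-ifKOs. Levels in EE were 34.9, 31.0 and 31.6 CPM in the controls and 13.4, 20.1 and 23.8 CPM in the CBP-ifKOs. The genotypes overlapped in SC, where Control SC replicate 3 lay among the CBP-ifKOs, and did not overlap in EE. For Scn4b the log2 fold change was -0.38 (SE 0.18, edgeR's adjusted p = 0.262) in SC, -0.76 (SE 0.16, edgeR's adjusted p = 0.0215) in EE and -0.58 (SE 0.14, edgeR's adjusted p = 0.0108) over both housings. The call in EE was lost without Control EE replicate 3 or CBP-ifKO EE replicate 2, with edgeR's adjusted p-values from 0.0164 to 0.0706.

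Scn2b, the gene of β2, ranged from 267 to 338 CPM. It lay lower in each EE-housed CBP-ifKO than in each EE-housed control, with a log2 fold change there of -0.14 (SE 0.06, edgeR's adjusted p = 0.218).

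**Figure D3:**
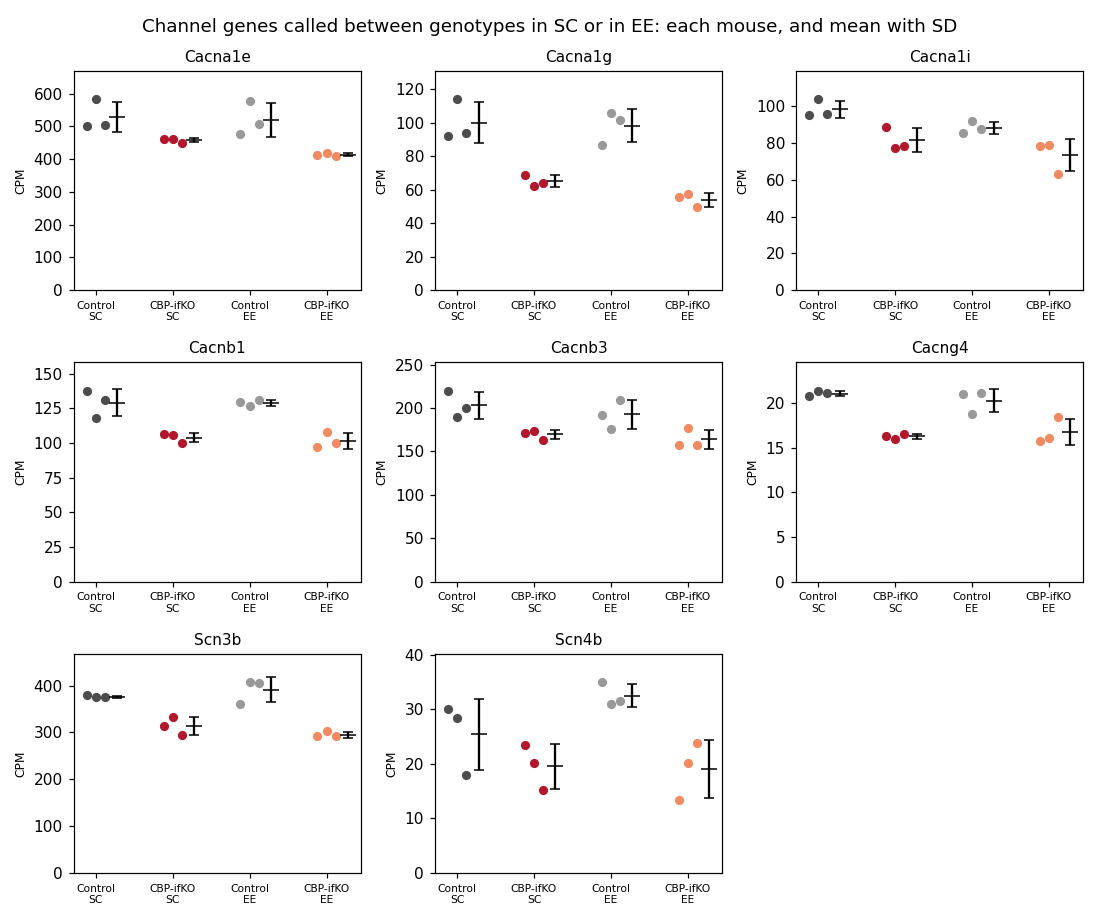
CPM of 8 channel genes called between genotypes in SC or in EE, with 1 point per mouse in each of the 4 groups and the mean with its SD beside the points. Cacna1g lies at 55.4, 57.3 and 49.3 CPM in the EE-housed CBP-ifKOs and at 87.0, 106 and 102 CPM in the EE-housed controls.

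Pore and accessory subunits were set side by side as summed RPKM. The accessory sum includes the γ genes, several of which encode TARPs, and no sum without them was made. The pore genes summed to 149, 174 and 152 RPKM in the SC-housed controls and 153, 149 and 149.7 RPKM in the SC-housed CBP-ifKOs, and to 148, 175 and 158 and 139, 153 and 139 RPKM in EE. These sums overlapped between genotypes in both housings. The accessory genes summed to 597, 537 and 547 RPKM in the SC-housed controls and 508, 519 and 478 RPKM in the SC-housed CBP-ifKOs, and to 581, 561 and 630.1 and 477, 535 and 524 RPKM in EE. Here each CBP-ifKO was below each control of its housing, but the families differed. The β sums, given above, did not overlap in either housing. The α2δ sums overlapped in SC, with means of 42.7 RPKM in controls and 40.3 in CBP-ifKOs, and did not in EE, with 44.6 and 41.3. The γ sums overlapped in both housings, with means of 118 and 117 RPKM in SC and 126 and 119 in EE. The ratio of the accessory to the pore sum was 4.0, 3.09 and 3.61 in the SC-housed controls, 3.31, 3.48 and 3.19 in the SC-housed CBP-ifKOs, 3.92, 3.21 and 3.99 in the EE-housed controls and 3.43, 3.49 and 3.76 in the EE-housed CBP-ifKOs. It overlapped between genotypes in both housings. Without the control libraries numbered 2 the pore sums still overlapped and the ratios did not. Leaving these libraries out was chosen after seeing the data. With 2 controls left in each housing, a lack of overlap does not show that the ratio differed. The differences of these sums were not tested.

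The second question was how the channel genes differed between housings. In the controls, EE against SC gave 0 called channel genes and 0% of the 18251 genes tested, with edgeR's quasi-likelihood test. DESeq2 also called 0 channel genes, and edgeR's quasi-likelihood test gave 1 an unadjusted p below 0.05, beside 768 of all genes. In edgeR this was Cacna2d3 with a log2 fold change of 0.13 (adjusted p = 0.999). Without overlap of groups, 1 gene lay lower and 3 higher in EE, beside 4.91% and 4.20% of all genes. They were Cacna1i below, and Cacna1f, Cacna2d3 and Scn4b above.

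In the CBP-ifKOs, EE against SC likewise gave 0 called channel genes, beside 0.00548% of all genes in each direction in edgeR. DESeq2 called 0, and 3 channel genes had an unadjusted p below 0.05 in edgeR, beside 1567 of all genes. In edgeR's quasi-likelihood test these included Cacna1g with a log2 fold change of -0.27 (adjusted p = 0.459) and Cacna2d3 with 0.14 (adjusted p = 0.510). Cacna1g was lower in each EE-housed CBP-ifKO than in each SC-housed one. Without overlap 3 genes lay lower in EE, which were Cacna1e, Cacna1g and Scn3a, and 1 higher, which was Scn1a, beside 8.17% and 7.69% of all genes.

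The housing and interaction terms tested together gave 0 called channel genes in edgeR and in DESeq2, beside 0.0712% of all genes in edgeR, and 2 with an unadjusted p below 0.05, beside 1254 of all genes. The interaction of genotype and housing, which asks whether the genotype difference changed with housing, gave 0 called channel genes in edgeR and in DESeq2, beside 0% of all genes in edgeR, and 0 with an unadjusted p below 0.05, beside 574 of all genes. In edgeR's quasi-likelihood test the interaction for Cacna1g had a log2 value of -0.24 (adjusted p = 0.9998). A gene that was called in 1 housing and not in the other was therefore not shown to differ between housings. Without the filter on low counts edgeR called 1 channel gene in the controls, 1 in the CBP-ifKOs and 1 for both terms together, which were Scn4b, Cacna1g and Scn4b. Of all genes it then called 68 lower and 77 higher in the controls, and 116 and 131 in the CBP-ifKOs. For both terms together it called 229 genes with a negative and 180 with a positive housing term.

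A list of 28 further genes held genes whose proteins act on these channels and the genes of the NALCN sodium leak channel. In edgeR 8 of 27 tested were called lower and 0 higher in SC, beside 4.02% and 1.51% of all genes. In EE 7 of 27 were called lower and 0 higher, beside 3.53% and 1.03%, and over both housings 12 of 28 lower and 2 higher, beside 10.3% and 6.64%. Among the RGK GTPases, which inhibit calcium channels, and the STAC adaptors, which slow their inactivation, Rem2 and Stac2 were called lower in both housings. Stac2 had 73.9 ± 4.58 CPM (SD, n = 3) in the SC-housed controls, 42.3 ± 4.01 in the SC-housed CBP-ifKOs, 85.3 ± 5.47 in the EE-housed controls and 45.8 ± 4.28 in the EE-housed CBP-ifKOs, with a log2 fold change over both housings of -0.85 (SE 0.06, edgeR's adjusted p = 1.77e-07). For Rem2 that value was -0.55 (SE 0.08, edgeR's adjusted p = 1.48e-04), and for Stac -0.38 (SE 0.11, edgeR's adjusted p = 0.0310). Gem, Rrad and Stac3 were tested and not called, and Rem1 was not tested in SC or in EE and was not called over both housings.

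Of the 8 FHF and initial segment genes, whose proteins bind the tail of sodium channels or hold them at the axon initial segment, Fgf11 and Fgf13 were called lower in both housings. Over both housings their log2 fold changes were -0.52 (SE 0.05, edgeR's adjusted p = 8.29e-06) and -0.37 (SE 0.04, edgeR's adjusted p = 4.61e-06). Ank3, the gene of ankyrin-G, had -0.27 (SE 0.07, edgeR's adjusted p = 0.00996), and Fgf12, Fgf14, Ank2, Sptbn4 and Nfasc were not called. Of the 4 genes of the NALCN sodium leak channel, Nalcn was called higher over both housings with 0.19 (SE 0.05, edgeR's adjusted p = 0.00977) and Fam155a lower with -0.13 (SE 0.03, edgeR's adjusted p = 0.0162). Among the 9 release site and calcium sensor genes, Cabp1 and Calm3 were among those called lower in both housings, and Calm2 was called in SC. Over both housings the log2 fold change of Cabp1 was -0.48 (SE 0.04, edgeR's adjusted p = 3.69e-06), while Rims1 was called lower with -0.18 (SE 0.05, edgeR's adjusted p = 0.0276) and Rims2 higher with 0.17 (SE 0.05, edgeR's adjusted p = 0.0422). Calm3 is on the list of decreased genes drawn partly from the SC-housed mice, so its calls in SC and over both housings are not independent evidence. In the housing comparisons 0 of the 28 were called by edgeR.

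Markers of hippocampal cell types were read beside these results, and their part in them was not tested. Of the 5 excitatory neuron markers, 1 was called lower in SC and in EE, which was Nrgn, and 2 over both housings, which were Nrgn and Neurod6. Their summed level was 2550.0, 2187 and 2388 CPM in the SC-housed controls, 2144, 2302 and 2150.2 in the SC-housed CBP-ifKOs, 2441, 2439 and 2687 in the EE-housed controls and 2089, 2294 and 2229 in the EE-housed CBP-ifKOs. The most abundant of them, Slc17a7, stood at 1240.3 ± 93.7, 1277 ± 53.3, 1282 ± 68.7 and 1256 ± 59.6 CPM in the same order and was not called. Of the 4 CA2 markers 2, Rgs14 and Pcp4, were called lower in SC, in EE and over both housings. Their sum was 181, 176 and 184 CPM in the SC-housed controls, 103, 112 and 111 in the SC-housed CBP-ifKOs, 190.1, 194 and 194 in the EE-housed controls and 109, 112 and 121 in the EE-housed CBP-ifKOs, and Rgs14 was the most abundant. Rgs14 was among the decreased genes that the study drew partly from the SC-housed mice, as was C1ql2, and their calls in SC and over both housings are not independent evidence.

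Of the 4 dentate granule cell markers, C1ql2 was called lower in SC, and C1ql2 and Dsp in EE and over both housings, while Prox1 and Calb1 were not called. The sum was 394, 358 and 397 CPM in the SC-housed controls, 347, 364 and 335 in the SC-housed CBP-ifKOs, 342, 406 and 389 in the EE-housed controls and 319, 315 and 309 in the EE-housed CBP-ifKOs, and Calb1 was the most abundant. Among the 7 interneuron markers, Sst was called lower in SC and over both housings and Vip higher over both. Their sum was 954, 879.9 and 944 CPM in the SC-housed controls, 845, 825 and 865 in the SC-housed CBP-ifKOs, 993, 932 and 919.7 in the EE-housed controls and 893, 861 and 887 in the EE-housed CBP-ifKOs, with Gad1 the most abundant. The 3 oligodendrocyte precursor markers were all called lower over both housings, with Pdgfra called in SC and Gpr17 in EE. They summed to 124, 142 and 122 CPM in the SC-housed controls, 109.6, 96.2 and 98.3 in the SC-housed CBP-ifKOs, 124, 132 and 125 in the EE-housed controls and 113, 107 and 102 in the EE-housed CBP-ifKOs, with Pdgfra the most abundant.

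The remaining lists are given beside the share of all genes called lower, which was 4.02% in SC, 3.53% in EE and 10.3% over both housings. Over both housings 1 of 5 astrocyte markers (Slc1a3, the most abundant), 2 of 5 microglia markers (Cx3cr1 and Csf1r), 0 of 5 oligodendrocyte and 0 of 4 endothelial markers were called lower, and 0 of each list in SC or in EE. The astrocyte sum was 1549.7 ± 92.8 CPM (SD, n = 3) in the SC-housed controls, 1435 ± 11.1 in the SC-housed CBP-ifKOs, 1479 ± 28.1 in the EE-housed controls and 1328 ± 36.5 in the EE-housed CBP-ifKOs. The microglia sum ranged from 224 to 265 CPM over the 12 mice, the oligodendrocyte sum from 3320.1 to 4727 CPM and the endothelial sum from 115 to 148 CPM. Csf1r, Mbp and Flt1 were the most abundant of these lists. Of the 5 choroid plexus markers, Ttr was called lower in SC and over both housings. Without Control EE replicate 1, a fit of the markers chosen after seeing the data, the call of Ttr over both housings was lost (adjusted p = 0.278, edgeR), as were those of Csf1r and Prkcd over both housings (adjusted p = 0.0864 and 0.0559) and of Pcp4 in EE (adjusted p = 0.0827). Slc1a3 was then called lower in EE (adjusted p = 0.0170, edgeR). Of the 5 thalamus and habenula markers, Prkcd was called lower in EE and over both housings, and their sum ranged from 35.3 to 51.6 CPM. Skeletal muscle markers summed to 4.29 to 8.27 CPM, most of it Acta1, which was called lower over both housings. In the housing comparisons 0 genes of these lists were called by edgeR, and 0 markers of any list had 0 counts in all 12 libraries.

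The channel genes also share positions in the genome, given here on GRCm38. Scn3a, Scn2a, Scn1a, Scn9a and Scn7a lie side by side on chromosome 2 between 65457118 and 66784914. Of these 5 neighbours, Scn9a was called higher over both housings and the others were not called. Scn2b and Scn4b lie on chromosome 9 between 45117782 and 45154152, and Scn4b was called lower. Cacng7, Cacng8 and Cacng6 lie on chromosome 7 between 3332955 and 3435667, where Cacng8 was called lower, and Cacng1, Cacng4 and Cacng5 on chromosome 11 between 107703218 and 107915055, where Cacng4 was called lower. Cacna1g lies on chromosome 11 from 94408391 to 94474198.

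The exons of 11 of the 40 genes share sequence with another annotated gene, and the strand setting of the counting was not stated, so reads of an overlapping gene on the opposite strand cannot be told apart. Gm13629, which overlaps Scn9a, had a mean of 1.53 CPM over the 12 mice, and Scn9a itself 5.27 CPM, so the share of antisense reads in the call of Scn9a is not known. Chdh, which overlaps Cacna1d, had 5.56 CPM, A730060N03Rik at Cacng2 1.34 CPM and Gm16183 at Cacna1a 1.32 CPM. The other overlapping genes stood lower, with Tpsg1 at Cacna1h, with 0.195 CPM, the highest of them.

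Promoters were read because CBP is a partner of CREB, a factor that binds the cyclic AMP response element. The element TGACGTCA and its short form TGACG were searched on both strands in the 250 bases before each start in the RefSeq table of build GRCm38.p6, and each full element also holds the short form on both strands. Of the 40 genes 30 had an entry, with 41 promoters. Those without an entry included Cacna1a, Cacna1g, Cacna1h, Cacna2d4, Cacng1, Cacng4, Scn3a and Scn3b. The full element was in 0 of the 41 promoters and in 508 of all 32851, which is 1.546%. The short form was in 6 of the 41, or 14.63%, and in 5836 of all, or 17.77%. Among genes called lower over both housings it was in 3 of 16 promoters, and in 3 of 25 promoters of the others.

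To show what lies before RefSeq starts of genes called lower and genes not called with all mice over both housings, 5 promoters are printed. They run from 5′ to 3′ on the strand of the gene, with the short form in capitals, as TGACG or, on the other strand, CGTCA. Cacna1i (chr15:80286988-80287237, plus strand) was called lower and holds the short form 72 bases before the start. Cacnb3 (chr15:98632078-98632327, plus strand) and Cacna2d3 (chr14:29721865-29722114, minus strand) were called lower, and these windows do not hold these letters. The Cacnb3 window lies inside the annotated gene, which runs from 98630840 to 98644529, and precedes a RefSeq start within it. Cacna1b (chr2:24763153-24763402, minus strand) and Cacna2d1 (chr5:15934441-15934690, plus strand) were not called and hold it 87 and 146 bases before the start. A match describes the letters and shows no binding.
Cacna1i: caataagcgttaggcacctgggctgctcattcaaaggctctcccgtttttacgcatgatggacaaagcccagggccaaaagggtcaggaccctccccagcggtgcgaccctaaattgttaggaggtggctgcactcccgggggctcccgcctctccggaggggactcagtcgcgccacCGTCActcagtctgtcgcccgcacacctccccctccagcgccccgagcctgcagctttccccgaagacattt
Cacnb3: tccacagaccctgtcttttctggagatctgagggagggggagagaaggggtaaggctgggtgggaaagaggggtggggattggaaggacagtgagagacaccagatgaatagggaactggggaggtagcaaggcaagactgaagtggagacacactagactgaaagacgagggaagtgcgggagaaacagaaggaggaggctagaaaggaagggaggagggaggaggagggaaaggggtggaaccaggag
Cacna2d3: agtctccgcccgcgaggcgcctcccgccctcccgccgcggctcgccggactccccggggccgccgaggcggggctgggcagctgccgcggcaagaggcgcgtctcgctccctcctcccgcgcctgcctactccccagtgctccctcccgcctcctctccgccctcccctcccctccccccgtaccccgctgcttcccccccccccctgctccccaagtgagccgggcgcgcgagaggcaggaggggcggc
Cacna1b: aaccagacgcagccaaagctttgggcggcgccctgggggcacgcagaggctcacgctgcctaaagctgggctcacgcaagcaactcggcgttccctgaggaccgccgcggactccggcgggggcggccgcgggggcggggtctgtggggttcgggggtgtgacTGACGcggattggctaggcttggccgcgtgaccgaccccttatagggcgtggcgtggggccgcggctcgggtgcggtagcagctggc
Cacna2d1: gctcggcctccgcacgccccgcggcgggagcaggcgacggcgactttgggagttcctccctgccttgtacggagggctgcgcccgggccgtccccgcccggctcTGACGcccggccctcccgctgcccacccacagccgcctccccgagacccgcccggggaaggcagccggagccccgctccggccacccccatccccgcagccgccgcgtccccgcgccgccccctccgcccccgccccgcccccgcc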

How the data were processed

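RNA of the hippocampus was measured in 12 mice. As the submitters' processing notes state, reads were trimmed with Trim Galore 0.6.4 and aligned with STAR 2.6.1 to mm10. The deposited values are raw read counts per gene, without normalization, for which Rsubread counted alignments of mapping quality above 10 on exons. By the column names, the authors merged the 2 runs of a mouse before counting. The deposited table also gives a length for each gene, which the authors' counting program wrote in bases of exon.

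Counts were filtered with filterByExpr, scaled with TMM and tested with the quasi-likelihood F test of edgeR 4.0.16 in R 4.3.3, with Benjamini-Hochberg adjustment over all genes and a threshold of 0.05. The SE of a log2 fold change is not given by this test and was derived as its absolute value divided by the square root of the F statistic. Genotypes were compared in 6 SC-housed and 6 EE-housed mice, and housing, interaction and the genotype difference over both housings in 12 mice. Depth lay between 26874015 and 37448388 counts per library, or from 14291105 with the CBP-ifKO counts divided by 2. The procedure was tested on simulated data. Alternatives were DESeq2 1.42.0, its size factors, no filter or 1 CPM in 3 libraries, the replicate number as a block, CBP-ifKO counts divided by 2, a log2 fold threshold of 0.5, other mice in the fit, and leaving out each mouse.

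Results of some genes are not reported here. Of the others, named with values in every mouse are channel genes called in at least 1 comparison, the most abundant of each family except NaV β, and Crebbp. The other channel genes are named with their range, and values of other genes in the text were picked after they were seen. Members and lists were chosen with earlier results of these data known. The 2 runs of a mouse were not compared, because the columns are named as merged.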

Additional observations from a re-analysis of the deposited data

How the results depend on the processing

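Each call of a channel gene between genotypes was recomputed under the alternatives, which gave 537 values for 29 calls. Of these 416 kept the call, 121 lost it and 0 reversed in sign. Of the losses 92 came from leaving out 1 mouse, which leaves fewer samples, and 22 from the fold threshold. For the remaining losses the cause was not tested.

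The counts of called genes moved by more than 1.5 times in the following settings, and the cause was not tested. DESeq2 called 9 channel genes in EE and 1296 of all genes there, and 15, 54 and 94 of all genes for housing in controls, housing in CBP-ifKOs and the housing and interaction terms together. Without the low-count filter there were 11 channel genes and 1512 genes in SC, 13 and 1677 in EE, 1 and 145 for housing in controls, 1 and 247 for housing in CBP-ifKOs, 1 and 409 for the terms together, and 110 of all genes for the interaction. The fold threshold, a stricter rule, left 2 channel genes and 283 genes in SC, 2 and 276 in EE, 3 and 523 over both housings, and 6 genes for the terms together. With all 12 mice in the fit 1293 genes were called in EE. With the 6 mice of a genotype in the fit 1 gene was called for housing in controls and 21 in CBP-ifKOs, and with CBP-ifKO counts divided by 2 the latter was 0.

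The length offset and the fit without both control libraries numbered 2 were chosen after seeing the data. Between genotypes the offset called 9 channel genes lower and 1 higher in SC, beside 908 and 422 of all genes. In EE it called 6 and 0, beside 851 and 297, and over both housings 16 and 2, beside 2087 and 1639. Of all genes, the offset gave 1 for housing in controls and 6 in CBP-ifKOs, and the smaller fit gave 1, 18 and, for the terms together, 20.

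Leaving out 1 mouse at a time gave between 1 and 11 channel genes and between 399 and 1908 genes in SC, between 2 and 7 and between 285 and 1016 in EE, and between 10 and 16 and between 2459 and 3294 over both housings. For all genes it gave between 0 and 5 for housing in controls, 0 and 10 in CBP-ifKOs and 0 and 16 for the terms together. A control or CBP-ifKO group then held 2 mice.

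Replicate numbers were not taken to pair mice across groups. The same-number pairs of libraries had correlations between -0.05 and 0.30, and 5 of 12 were above 0.1. Pairs of different numbers had correlations between -0.25 and 0.14. Whether libraries of equal number share a feature was not tested. With the replicate block the channel genes called were 8 in SC, 6 in EE and 17 over both housings, and all genes called were 17 for housing in CBP-ifKOs and 22 for the terms together.

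Cacna1f, Cacna2d4 and Cacng6 stood at a few CPM or below, where counting error is largest.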
